A study of Mus musculus with 35 samples.

Results

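The genes described here are 43 components of the DNA replication machinery, measured in epithelial cells sorted from mouse skin, palate and tongue. They were taken by name from the deposited per-library gene tables, which list 53715 genes for back skin and 49585 for tail skin, palate and tongue, and all 43 were present in every table. All mice were C57BL/6J, 2 months old and carried K5-tTA/pTRE H2B-GFP, in which the keratin 5 promoter drives the doxycycline-repressed activator that switches on a histone H2B-GFP fusion. All were fed doxycycline in chow, for 2 weeks before skin was taken and for 10 days before palate and tongue were taken, and no group lacked the transgenes or the doxycycline. Label-retaining cells (LRC) keep GFP and count as slow-cycling, and cells without retained label (nLRC) count as fast-cycling. Because the activator is driven by a basal keratinocyte promoter, the label is a measure of past division only in cells that descend from keratin 5-expressing cells. Back skin gave 6 groups of 3 libraries each (basal LRC, basal nLRC, spinous LRC, spinous nLRC, granular cells and hair follicle bulge), tail skin gave 3 groups of 3 (basal LRC, basal nLRC and bulge), and palate and tongue each gave basal LRC and basal nLRC in 2 libraries per group. Whether the libraries within a group stem from different mice is not stated in the labels, and each p-value therefore reflects library-to-library spread, which may be technical. The comparison of LRC with nLRC within each tissue and layer asks how far the replication machinery differs between slow-cycling and fast-cycling cells.

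Replication begins when the origin recognition complex (Orc1 and Orc6 among its subunits), Cdc6 and Cdt1 load the Mcm2 to Mcm7 helicase onto DNA. The helicase is switched on by Cdc45, the GINS complex (Gins1 to Gins4) and Mcm10. Primase and polymerase alpha (Prim1, Prim2, Pola1, Pola2) start each strand, and polymerases delta and epsilon extend it on the sliding clamp Pcna, which the Rfc complex loads. Rpa coats single-stranded DNA, Fen1 and Lig1 finish Okazaki fragments, Rrm1, Rrm2, Tyms and Dut serve nucleotide supply, and Chaf1a, Chaf1b, Uhrf1 and Dnmt1 restore chromatin and DNA methylation behind the fork. Many of these genes are textbook targets of E2F factors and peak around the start of S phase. In epidermis, division takes place mostly in the basal layer, and cells leave the cycle as they move up through the spinous and granular layers.

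The proximal promoters shown next belong to members whose values are described in the later paragraphs, and they are given because the members' levels varied together across libraries. RefSeq promoter sequences on GRCm38.p6 matched 36 of the 43 members (no entry for Gins1, Gins2, Gins4, Mcm4, Pole, Prim2 and Rfc2). The 250 bases before each start were searched on both strands for the E2F words TTTCCCGC, TTTGGCGC, TTTCGCGC and TTTGCCGC, some of which overlap in the Mcm6 and Mcm5 promoters. At least 1 word was found in 10 members (27.8% of 36) and in 2.16% of 27025 genes with an entry. The 10 were Mcm5, Mcm6, Mcm7, Orc1, Cdc6, Gins3, Rfc3, Pola1, Dnmt1 and Uhrf1. The letters CCAAT, on either strand, were found in 24 members (66.7%) and in 37.5% of all genes. A match describes these letters only and is not a binding site. Sequences are written 5′ to 3′ along the gene's strand, with the E2F words in capitals, except that in the Mcm5 stretch only the first of the overlapping words is marked. The Mcm6 window is chr1:128359706-128359955 on the minus strand, where the first word begins 110 bases before the start and the last 47 bases before it. The shorter stretches are Rfc3 chr5:151651209-151651229 (minus), Mcm5 chr8:75109345-75109374 (plus), Uhrf1 chr17:56304117-56304146 (plus), Dnmt1 chr9:20952824-20952853 (minus) and Pola1 chrX:93632275-93632304 (minus).
Mcm6: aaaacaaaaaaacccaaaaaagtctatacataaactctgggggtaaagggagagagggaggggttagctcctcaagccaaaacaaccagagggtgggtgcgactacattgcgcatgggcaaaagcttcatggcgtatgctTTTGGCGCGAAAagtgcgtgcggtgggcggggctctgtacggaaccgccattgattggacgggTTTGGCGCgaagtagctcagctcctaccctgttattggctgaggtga
Rfc3: acgtcgcacgcTTTCGCGCtc
Mcm5: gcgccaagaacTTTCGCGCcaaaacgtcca
Uhrf1: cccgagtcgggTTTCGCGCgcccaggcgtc
Dnmt1: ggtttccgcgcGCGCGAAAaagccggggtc
Pola1: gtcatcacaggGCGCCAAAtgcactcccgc

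Libraries held 9785944 to 20560481 gene reads in back skin, 8421582 to 14093720 in tail, 11680595 to 15641556 in palate and 11847897 to 13034075 in tongue. The 43 members together took 5273 to 38924 of these reads per library, and the lowest count of any member was 5 reads, for Gins1 in granular library 3. Back bulge library 2 had the fewest back reads and a scaling factor of 0.50 against 0.96 to 1.19 in the other back libraries, and palate nLRC library 2 had a factor of 0.67. The libraries labelled spinous nLRC went against their layer label: the summed level of 5 spinous markers (Krt1, Krt10, Dsg1a, Dsc1, Krtdap) was 4826 to 10856 TPM (a length-scaled level that sums to the same total in each library) there, against 4729 to 7861 in the basal libraries and 26633 to 43788 in spinous LRC. Those 3 libraries also carried 2751 to 6652 TPM of 7 sebocyte markers, against 150 to 551 in the basal libraries and 268 to 381 in spinous LRC. The granular libraries carried 126 to 644 TPM of 5 granular markers, against 53.4 to 131 in spinous LRC. Their spinous markers, at 29929 to 38450 TPM, lay within the spinous LRC range. Basal markers were highest in the basal libraries of back skin (54798 to 84245 TPM) and oral markers in palate and tongue (1452 to 12483 TPM, against at most 8.3 in skin). The bulge marker Cd34 was higher in back bulge than in basal cells by 11.54 on the log2 scale. The 6 bulge markers together, however, were at 3705 to 19347 TPM in the back bulge libraries. This range overlapped the 7617 to 12212 TPM of back basal LRC.

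Across back skin, the replication genes stood highest in the basal layer and lowest in granular cells. TPM, which divides reads by gene length, was used to set levels beside each other. The summed TPM of the 43 members was 1994 ± 541 (SD, n = 3) in basal LRC and 1582 ± 261 in basal nLRC. It was 1276 ± 147 in spinous nLRC, 1283 ± 94.2 in the bulge, 726 ± 89.4 in spinous LRC and 576 ± 41.4 in granular cells. The basal LRC and basal nLRC ranges overlapped (1589 to 2608 and 1336 to 1856), as did those of spinous nLRC and bulge (1132 to 1427 and 1212 to 1390). The spinous LRC libraries (662 to 828) lay wholly above the granular ones (537 to 619) and below all the others. In these bulk samples, fewer cells in S phase and less replication RNA per cell cannot be told apart. In the separately tabulated tissues, tail basal LRC summed to 805 ± 110 TPM, tail basal nLRC to 523 ± 113 and tail bulge to 431 ± 81.6 (n = 3 each). Palate LRC summed to 474 ± 131 and nLRC to 423 ± 164, and tongue LRC to 337 ± 23.6 and nLRC to 356 ± 55.5 (n = 2 each). Because back skin tables list other genes, these values stand beside the back values and are not compared with them.

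**Figure D1:**
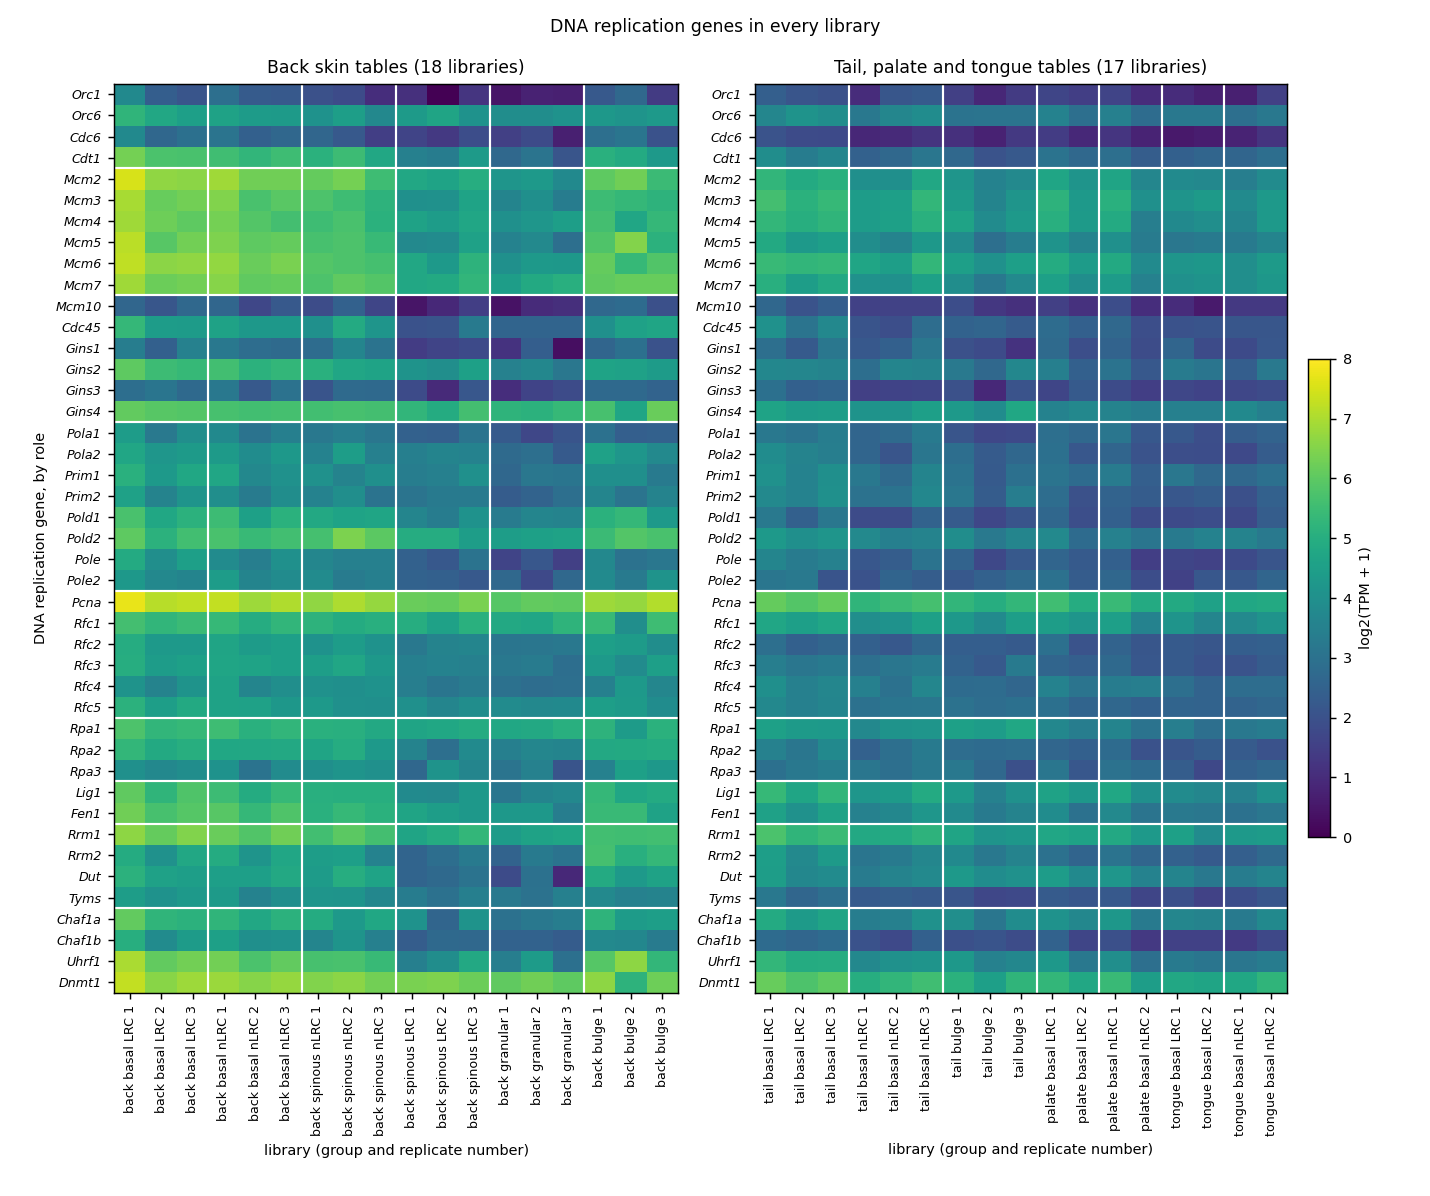
Level of each of the 43 replication genes (rows, ordered by role) in each of the 35 libraries (columns, ordered by group), as log2(TPM + 1) by colour, with back skin in one panel and tail, palate and tongue in the other. Within the back skin panel, most members are highest in the basal groups and lowest in spinous LRC and granular cells. Pcna, Dnmt1 and Mcm6 are the strongest rows over all libraries.

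The most abundant member over all 35 libraries was the sliding clamp Pcna, at a mean of 76.5 TPM. Its TPM was 214.07, 139.17 and 150.04 in the 3 back basal LRC libraries, 152.32, 112.24 and 131.65 in basal nLRC, 71.05, 68.69 and 82.46 in spinous LRC, 101.84, 128.69 and 105.62 in spinous nLRC, 58.68, 66.42 and 64.14 in granular cells and 111.67, 104.63 and 133.81 in the bulge. Spinous LRC and granular values lay below all the others without overlap, and basal LRC overlapped basal nLRC. In tail, Pcna was 68.47, 56.64 and 68.22 TPM in LRC and 36.55, 43.21 and 48.72 in nLRC, which did not overlap on this scale. On log2(TPM + 1) with limma, the median of all genes was also 0.19 higher in tail LRC. In the edgeR fit of counts, 0 of 6 clamp and loader genes passed there, and their highest log2 difference was 0.30.

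The maintenance methyltransferase Dnmt1 followed at a mean of 63.5 TPM and had a flatter pattern. Its TPM was 152.96, 93.94 and 113 in back basal LRC, 109.81, 93 and 105.66 in basal nLRC, 83.71, 85.75 and 73.2 in spinous LRC, 88.56, 96.57 and 77.12 in spinous nLRC and 65.81, 76.21 and 63.69 in granular cells. Its highest group mean was 1.75 times its lowest. Mcm6, a subunit of the replicative helicase, averaged 42.2 TPM and spanned a wider range. Its TPM was 148.2, 95.64 and 100.07 in basal LRC, 102.98, 70.81 and 83.26 in basal nLRC, 26.73, 18.87 and 34.69 in spinous LRC, 56.84, 53.84 and 49.42 in spinous nLRC, 15.09, 19.17 and 18.13 in granular cells and 67.48, 39.84 and 55.99 in the bulge. The spinous LRC and spinous nLRC values of Mcm6 did not overlap. The least abundant members were the helicase activator Mcm10 (2.57 TPM over all libraries) and the origin subunit Orc1 (2.60 TPM).

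Among the licensing factors, Orc1 and Cdt1 had the widest spans of all members and Orc6 a narrow one. Cdt1 averaged 61 ± 16 TPM (SD, n = 3 here and below) in back basal LRC, 42.4 ± 4.5 in basal nLRC, 12.9 ± 5.6 in spinous LRC and 5.42 ± 2.0 in granular cells. Cdc6 averaged 8.32 ± 4.0 in basal LRC and 1.67 ± 0.98 in granular cells, and Orc1, which was listed at 0 in spinous LRC library 2 although 21 reads were counted over the gene there, averaged 6.84 ± 5.4 and 0.567 ± 0.16. Orc6 was flatter, at 28.4 ± 7.5 and 14.8 ± 0.82. The MCM subunits, which act as a ring with each subunit present, had like levels: Mcm2, Mcm3, Mcm5 and Mcm7 averaged 126 ± 49, 90.2 ± 29, 94.3 ± 45 and 88.7 ± 23 TPM in basal LRC and 16.3 ± 3.1, 11.8 ± 2.9, 10.0 ± 3.1 and 26.9 ± 5.6 in granular cells. Helicase activators were scarcer and uneven. Cdc45 averaged 26.7 ± 11 TPM in basal LRC and 4.96 ± 3.2 in spinous LRC, Gins2 49.4 ± 13 and 17.7 ± 4.3, and Gins3 6.62 ± 1.0 and 2.33 ± 1.3, while Gins4 stood at 60.6 ± 4.8 and 38.0 ± 9.0.

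Among the enzymes of synthesis, Pold1, the catalytic subunit of polymerase delta, averaged 37.2 ± 13 TPM in basal LRC, 12.1 ± 3.3 in spinous LRC and 25.6 ± 1.8 in spinous nLRC. Prim1 averaged 25.9 ± 7.2 in basal LRC and 11.6 ± 3.1 in spinous LRC, and Pole2 13.9 ± 3.8 and 4.31 ± 0.58. The clamp loader subunits Rfc2, Rfc4 and Rfc5 averaged 22.6 ± 6.5, 14.5 ± 3.1 and 28.0 ± 6.6 in basal LRC and 10.2 ± 1.7, 8.76 ± 1.1 and 13.6 ± 1.9 in spinous LRC. Of the Rpa subunits, Rpa2 averaged 32.6 ± 5.1 in basal LRC and 10.3 ± 3.4 in spinous LRC, and Rpa1 43.8 ± 8.3 and 26.5 ± 2.4. The flap endonuclease Fen1 averaged 61.3 ± 14 and 21.3 ± 3.2. Rrm1 averaged 85.4 ± 15 and 30.8 ± 7.1, and Tyms 18.5 ± 2.6 and 8.73 ± 1.6. Behind the fork, Uhrf1 averaged 90.2 ± 32 and 17.3 ± 9.2 and Chaf1b 21.6 ± 9.2 and 5.14 ± 0.89, a wider gap than that of Dnmt1.

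Group means within back skin peaked in basal LRC for 36 of 43 members. The exceptions were 2 that peaked in basal nLRC, 2 in spinous nLRC (Pold2, the accessory subunit of polymerase delta, and Gins1) and 3 in the bulge (Rrm2, the regulated subunit of ribonucleotide reductase, the smallest Rpa subunit Rpa3, and Mcm10). Granular cells had the lowest mean for 37 members and spinous LRC for the other 6. The span between highest and lowest back group was 12.1-fold for Orc1, 11.3-fold for the licensing factor Cdt1 and 9.42-fold for Mcm5, and only 1.48-fold for the clamp loader subunit Rfc1 and 1.65-fold for Gins4. In the other tissues, 41 members had their highest group mean in tail basal LRC, the exceptions being Dut in palate LRC and Rpa1 in tail bulge, and 27 had their lowest in tongue LRC. How many of all genes peaked or were lowest in each group was not counted, so these counts have no background. With limma on log2(TPM + 1), the median LRC over nLRC difference of all genes was 0.19 in tail and -0.10 in tongue.

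Members varied together from library to library. For each member, its log2(TPM + 1) was correlated with the mean of the other 42 across the 18 back libraries, which differ in layer, depth and scaling. Pearson's r had a median of 0.908 over the 43 members and was above 0.8 for 36, from 0.443 for Rfc1 to 0.988 for Mcm3. Across the 17 tail, palate and tongue libraries the median was 0.891, from 0.536 for Pole2, a polymerase epsilon subunit, to 0.983 for its catalytic partner Pole. These values are descriptions, since libraries of a group share a layer and a sort, and the later ones also differ in tissue.

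In the back basal layer, no replication gene differed between slow-cycling and fast-cycling cells by edgeR's quasi-likelihood test (Benjamini-Hochberg adjusted p under 0.05 over 16574 genes). The count was 0 of 43, also at an unadjusted p under 0.05 and with DESeq2, while 0.235% of all genes tested passed in either direction. The log2 difference of LRC over nLRC was positive for 39 of 43 members, with a median of 0.25 beside -0.01 over all genes. The catalytic subunit of polymerase epsilon, Pole, had the smallest p. Its TPM was 28.93, 14.57 and 21.81 in LRC and 13.49, 9.77 and 15.04 in nLRC, so the lowest LRC library lay below the highest nLRC library. Its log2 difference was 0.65 ± 0.37 (SE, n = 3 against 3, edgeR adjusted p = 1.0). Pola1, the catalytic subunit of polymerase alpha, was at 20.25, 8.42 and 14.65 TPM in LRC and 12.75, 7.25 and 9.86 in nLRC, a log2 difference of 0.45 ± 0.31. The Okazaki ligase Lig1 was at 65.81, 36.3 and 54.36 TPM in LRC and 43.4, 29.49 and 40.17 in nLRC, a log2 difference of 0.41 ± 0.32. Both overlapped between the groups. Same-numbered libraries deviate together in this layer, and within each of the 3 numbers Pole, Pola1 and Lig1 were higher in LRC, as was the summed TPM of the members (2608 against 1856, 1589 against 1336 and 1785 against 1554). With the replicate number as a block, 0 of 43 passed. The members not positive lay between -0.33 (Rfc4) and -0.01 (Rrm2) in log2 difference, and which members lay below 0 varied with the setting: 42 were positive without basal LRC library 2. The median over members moved with single libraries: it was 0.13, with 34 positive, without basal LRC library 1, and 0.38 without basal nLRC library 1.

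By role, the MCM subunits had back basal log2 differences from 0.15 to 0.43, the licensing factors from 0.30 to 0.40 and the clamp and its loader from -0.33 to 0.26. The surrounding pathway genes gave 0 called as well: 0 of 29 other replisome genes (median 0.21), 0 of 21 regulators of entry into S phase (cyclins D and E, their kinases and E2F factors, median 0.12), 0 of 14 nucleotide and histone supply genes (median 0.17) and 0 of 24 mitosis genes (median -0.26). Among the sebocyte markers, Mgst1 fell by 3.54 ± 0.66 on the log2 scale in LRC (edgeR adjusted p = 0.0360).

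**Figure D2:**
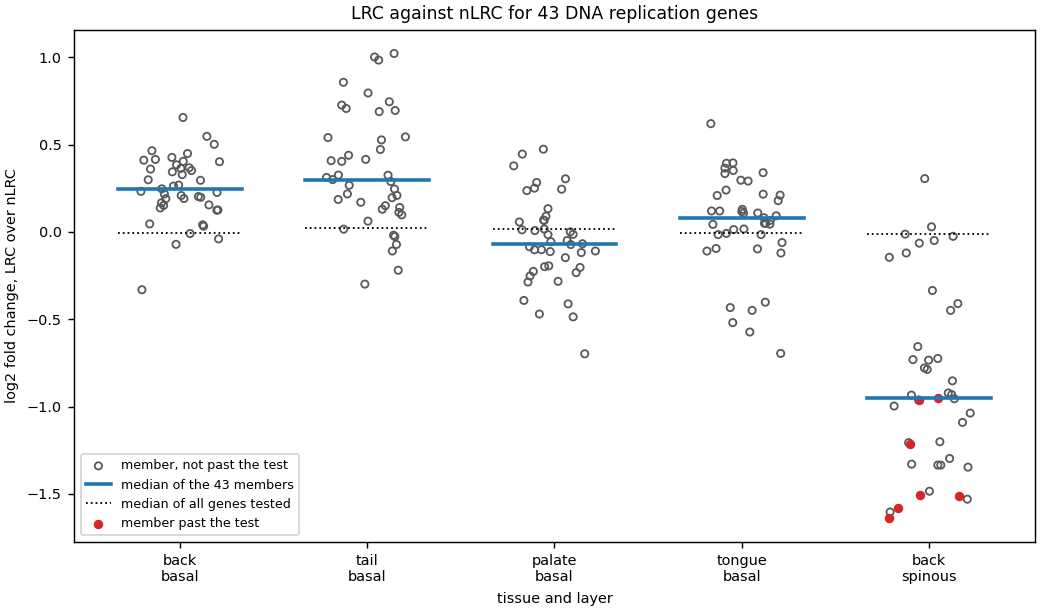
Log2 fold change of LRC over nLRC for each of the 43 replication genes in the 5 tissue and layer comparisons, with points for genes, a blue line at the members' median, a dotted line at the median of all genes, and filled red points for members past the edgeR test. Members lie mostly above 0 in back and tail basal cells (medians 0.25 and 0.30), around 0 in palate and tongue (-0.07 and 0.08), and mostly below 0 in the back spinous layer (-0.95), the only comparison of the 5 with members past the test.

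In the tail basal layer the members again leaned toward LRC, and 0 of 43 passed the edgeR test, where 4.60% of 14993 genes passed in either direction. Of the members, 12 had an unadjusted p under 0.05 and 37 had a positive log2 difference, with a median of 0.30 beside 0.02 over all genes. On log2(TPM + 1) with limma, 43 were positive with a median of 0.58, beside 0.19 over all genes. The second subunit of polymerase alpha, Pola2, was at 13.69, 10.92 and 9.65 TPM in LRC and 5.1, 3.32 and 7.82 in nLRC. Its LRC libraries all lay above the nLRC libraries, with a log2 difference of 0.86 ± 0.25 (edgeR adjusted p = 0.0927). Uhrf1, which brings Dnmt1 to newly copied DNA, was at 38.66, 29.09 and 30.07 TPM in LRC and 12.34, 15.49 and 16.61 in nLRC, without overlap, and had a log2 difference of 0.74 ± 0.23 (edgeR adjusted p = 0.103). The helicase activator Cdc45 was at 15.39, 7.4 and 12.2 TPM in LRC and 3.22, 2.76 and 6.25 in nLRC, also without overlap, with a log2 difference of 1.02 ± 0.31 (edgeR adjusted p = 0.103).

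These tail values sat near the threshold. With the replicate number as a block, 8 of 43 rose in LRC, while 8.10% of all genes were called higher: Chaf1a, a subunit of the chromatin assembly factor (edgeR adjusted p = 0.00964), the primase subunit Prim2 (0.0154), Uhrf1 (0.0221), Pola2 (0.0252), Cdc45 (0.0370), Pole (0.0420), Gins3 (0.0421) and the loading factor Cdc6 (0.0463). DESeq2 called 5 higher (Uhrf1, Pola2, Cdc45, Chaf1a and Gins3), while it called 6.06% of all genes higher. Without tail nLRC library 3, 2 of 43 passed as higher, where 321 of 15768 genes were called higher. Without tail LRC library 1 the members' median was 0.14, with 31 positive. Beside this, 4 of 24 mitosis genes rose in tail LRC, among them the kinase Aurkb by 1.49 ± 0.34 (edgeR adjusted p = 0.0345), with 0 of the other replisome, S phase entry and supply genes called. With the replicate block, 15 of 24 mitosis, 5 of 29 other replisome, 3 of 21 S phase entry and 1 of 14 supply genes rose. Markers of other cell types moved in the same comparison: 4 of 6 bulge markers rose (Sox9 by 2.52, Lhx2 by 3.34), 3 of 7 sebocyte markers fell, and Krt14 fell by 1.32. The summed bulge markers were 1615 to 3100 TPM in tail LRC and 333 to 609 in tail nLRC, and their part in the members' values was not tested.

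The tail and back basal effects were also set against each other in a fit of the 20 basal libraries. The difference between the effects had a median of 0.05 over the members, beside 0.04 over all genes, and was positive for 23 of 43. On log2(TPM + 1) with limma the median was 0.32, beside 0.16 over all genes, with 37 positive. Leaving out single libraries moved the median from -0.10 (without tail LRC library 1) to 0.22 (without tail LRC library 2). None of the 43 passed the test, where 2.71% of 17103 genes passed in either direction, and 1 member, Gins3, had an unadjusted p under 0.05 (0.83 ± 0.39, edgeR adjusted p = 0.353). The regulators E2f7 and Aurkb, outside the list, did pass and are described in the closing paragraphs.

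In palate and tongue, with 2 libraries per group, no member passed. In palate, 0 of 43 were called, where 0% of 14923 genes passed, 17 had a positive log2 difference, and the median was -0.07 beside 0.01 over all genes. The smallest p belonged to Rpa3, at 7.86 and 3.46 TPM in LRC and 7.17 and 6.01 in nLRC, a log2 difference of -0.70 ± 0.45 (edgeR adjusted p = 0.644). Rrm2 (-0.41 ± 0.27) and Mcm10 (-0.47 ± 0.31) followed, and both overlapped between the groups. The sign over the list depended on the scale. On log2(TPM + 1) with limma, 37 members were positive with a median of 0.17, beside 0.18 over all genes. Without palate nLRC library 2, whose scaling factor stood apart, 17 were positive and the median was -0.02. Without palate LRC library 1, 8 were positive and the median was -0.28, and without LRC library 2 it was close to 0 with 21 positive.

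In tongue, 0 of 43 passed, where 0.00670% of 14923 genes passed, with 29 positive and a median of 0.08 beside -0.01. Mcm10 was at 1 and 0.5 TPM in LRC and 1.51 and 1.53 in nLRC, without overlap, a log2 difference of -0.70 ± 0.33 (edgeR adjusted p = 1.0). Gins2, a GINS subunit, was at 9.15 and 7.56 TPM in LRC and 4.29 and 8.45 in nLRC, which overlapped, a log2 difference of 0.62 ± 0.31. Pola1 was at 3.6 and 2.82 TPM in LRC and 4.13 and 4.9 in nLRC, without overlap, a log2 difference of -0.43 ± 0.22. On log2(TPM + 1), 11 members were positive with a median of -0.09, beside -0.10 over all genes. The edgeR median was -0.02 with 20 positive without tongue LRC library 2, and 0.21 with 33 positive without LRC library 1. The mitosis list gave 0 of 24 in both oral tissues (medians 0.43 in palate and -0.11 in tongue).

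In the libraries labelled back spinous, some of the replication genes were lower in LRC than in nLRC. The nLRC libraries went against their layer label, with spinous markers at 4826 to 10856 TPM against 26633 to 43788 in LRC. Their sebocyte markers were at 2751 to 6652 TPM against 268 to 381. Label retention and cell type therefore cannot be told apart in this comparison. By the edgeR test 7 of 43 fell in spinous LRC and 0 rose, where 8.63% of 16574 genes were called lower. The 7 were Dut, Rfc3, Rrm2, Mcm6, Cdt1, Mcm4 and Pold2. The log2 difference was negative for 41 members, with a median of -0.95 beside -0.01 over all genes. The other 2 were Orc6 (0.31) and Pola1 (0.03), and 24 had an unadjusted p under 0.05. On GRCm38 these genes lie at chr2:125247190-125258608 (Dut, plus), chr5:151642756-151651242 (Rfc3, minus), chr12:24708241-24714146 (Rrm2, plus), chr1:128331590-128359664 (Mcm6, minus), chr8:122568015-122573554 (Cdt1, plus), chr16:15623897-15637400 (Mcm4, minus) and chr11:5872180-5878292 (Pold2, minus). Of their promoters, those of Mcm6 and Rfc3 hold the E2F words printed earlier, those of Dut, Rrm2, Cdt1 and Pold2 hold none of the words searched, and Mcm4 had no entry. The annotation places all 5540 bases of Cdt1 inside another gene model on the same strand, Gm20388, so its count may include reads of that model.

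Dut, which removes dUTP so that uracil is kept out of DNA, had the smallest p. Its TPM was 4.94, 5.71 and 7.34 in spinous LRC and 19.78, 30.56 and 23.84 in spinous nLRC. The groups did not overlap, and the nLRC values sat within or near the basal range (21.56 to 33.95 over both basal groups). Dut was 3.12-fold lower in LRC (edgeR adjusted p = 0.00879), and it passed without each of the 6 spinous libraries in turn.

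The clamp loader subunit Rfc3 was at 9.98, 10.64 and 10.17 TPM in spinous LRC and 21.35, 25.74 and 18.3 in spinous nLRC, again without overlap. It fell by 1.22 ± 0.33 on the log2 scale, or 2.32-fold (edgeR adjusted p = 0.0181). Rrm2, which makes deoxynucleotides in S phase, was at 4.94, 6.41 and 8.59 TPM in LRC and 20.9, 21.86 and 10.71 in nLRC. The groups did not overlap, though nLRC library 3 stood closer to the LRC libraries, and Rrm2 was 2.86-fold lower (edgeR adjusted p = 0.0355). Mcm6, whose values are given with the levels, fell by 0.96 ± 0.30 (edgeR adjusted p = 0.0417).

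Cdt1, which brings the helicase to origins, was at 10.22, 9.23 and 19.38 TPM in spinous LRC and 33.72, 43.98 and 26.67 in spinous nLRC. It did not overlap and fell by 1.58 ± 0.51 (edgeR adjusted p = 0.0441). Mcm4, another helicase subunit, was at 23.5, 20.59 and 25.67 TPM in LRC and 44.57, 51.38 and 33.17 in nLRC, and fell by 0.95 ± 0.31 (edgeR adjusted p = 0.0463). Pold2 was at 30.23, 30 and 20.8 TPM in LRC and 48.6, 84.11 and 62.39 in nLRC, and fell by 1.51 ± 0.49 (edgeR adjusted p = 0.0475). Neither overlapped between the groups. By role, the 7 calls comprised 2 of 6 MCM subunits, 2 of 4 nucleotide supply genes and 1 each of licensing, polymerase and clamp genes, with 0 of 6 helicase activators, 0 of 3 Rpa subunits, 0 of 2 Okazaki enzymes and 0 of 4 chromatin genes.

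**Figure D3:**
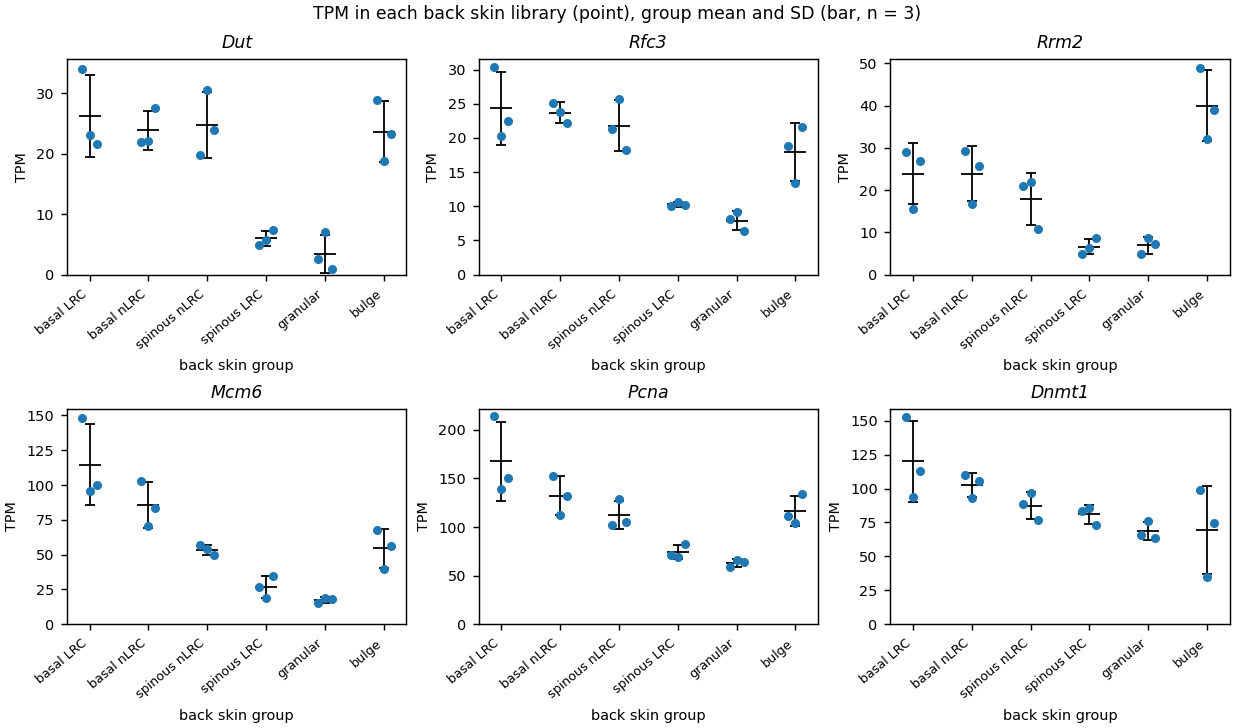
TPM of Dut, Rfc3, Rrm2, Mcm6, Pcna and Dnmt1 in each back skin library, with points for libraries, and bars for the mean and its SD (n = 3) in each of the 6 groups. Spinous LRC lies below spinous nLRC without overlap for Dut, Rfc3, Rrm2, Mcm6 and Pcna, whereas the Dnmt1 values overlap.

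The number called in the spinous comparison rested on single libraries. It was 1 without spinous LRC library 1, without LRC library 2 or without nLRC library 2, 3 without nLRC library 3, and 4 without nLRC library 1. Over all genes, those called lower in these fits ran from 827 of 17377 (without LRC library 1) to 1346 of 17342 (without nLRC library 1). Back bulge library 2 is in neither group but shares the fit's filter, scaling and estimate of the spread. Without it, 17405 genes were tested, 12.2% of them were called lower, and the number of members rose to 28 of 43 with all 7 among them. The median was then -0.90 with 38 negative. Beside the members, 18 of 24 mitosis genes fell, among them Tpx2, Cenpf and Mki67, as did 4 of 21 S phase entry genes (cyclin D2, Ccnd2, by 0.92, the repressor E2f7 by 1.35 and the kinase Cdk6 by 0.70). Of the 29 other replisome genes 2 fell, the origin-firing kinase Cdc7 by 2.39 and the firing factor Ticrr by 1.54, and of the 14 supply genes 2 fell, the thymidylate kinase Dtymk by 1.44 and the histone chaperone Asf1b by 1.89. In the same comparison 4 of 5 spinous markers rose (Krt10 by 2.39), 7 of 7 sebocyte markers fell (Mgst1 by 6.77) and 2 of 7 basal markers fell, and their part in the members' values was not tested. The estimated share of a member's reads that fell in introns had a median over members of 20.05 to 24.79% in the spinous LRC libraries and 6.97 to 17.76% in spinous nLRC. Over protein-coding genes at large this median was also higher in spinous LRC, at 36.81 to 41.15% against 25.15 to 35.41%.

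Among LRC, moving from the basal to the spinous layer, 20 of 43 members fell and 0 rose, where 2.85% of all genes were called lower. All 43 log2 differences were negative, with a median of -1.51. Of the helicase subunits 5 of 6 fell: Mcm6 by 2.05 ± 0.31 (edgeR adjusted p = 0.00118), Mcm4 by 1.76, Mcm3 by 2.24 and Mcm2 by 2.17 among them. Of polymerase epsilon, Pole fell by 2.13 and Pole2 by 1.36. Lig1 fell by 1.75, Dut by 2.02, Cdt1 by 2.25 and Cdc45 by 1.97. The chromatin assembly subunits Chaf1a and Chaf1b fell by 1.82 and 2.05. The clamp and its loader gave 1 of 6 and Rpa 1 of 3, and the log2 differences nearest to 0 were those of Rpa3 (-0.14) and Rfc1 (-0.45). Of the other lists, 10 of 29 replisome genes fell (Ticrr by 1.86, the fork protein Wdhd1 by 2.17), 6 of 21 S phase entry genes (Ccnd1 by 2.24), 2 of 14 supply genes (the histone mRNA binder Slbp by 1.39) and 6 of 24 mitosis genes, or 12 with the replicate block. All 5 spinous markers rose. The count of members was 7 without basal LRC library 1, 7 without spinous LRC library 1 and 6 without spinous LRC library 2, where 256 of 17341, 215 of 17377 and 211 of 17393 genes were called lower. It was 38 without back bulge library 2, where 5.46% of all genes were called lower.

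Among nLRC the same step gave 0 of 43, where 4.17% of all genes passed in either direction, and 2 members had an unadjusted p under 0.05. Of the log2 differences 40 were negative, with a median of -0.39. Prim2 (-0.77 ± 0.27, edgeR adjusted p = 0.137), Mcm6 (-0.73 ± 0.30, edgeR adjusted p = 0.235) and the largest Rpa subunit Rpa1 (-0.33) had the smallest p. With the replicate block Prim2 passed (1 of 43), and without back bulge library 2 Mcm6 passed (1 of 43). Of the spinous markers 1 of 5 rose (Dsc1 by 1.70) and of the sebocyte markers 7 of 7 rose in this comparison, while cyclin D1 (Ccnd1) fell by 1.87. The part of these markers in the members' values was not tested.

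The difference between the LRC effects of the 2 layers was tested directly, and the spinous nLRC libraries, which went against their layer label, enter it. The spinous effect minus the basal effect was negative for all 43 members, with a median of -1.14. None passed, where 0.392% of all genes passed in either direction, although 19 members had an unadjusted p under 0.05. Dut (-1.86 ± 0.54, edgeR adjusted p = 0.134), Pole (-1.75, edgeR adjusted p = 0.156) and Mcm6 (-1.32, edgeR adjusted p = 0.182) had the smallest p, and DESeq2 called Dut and Pole (adjusted p = 0.0297 and 0.0495). Without back bulge library 2, 17 of 43 passed, all in the negative direction, where 2.26% of all genes were called lower.

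**Figure D4:**
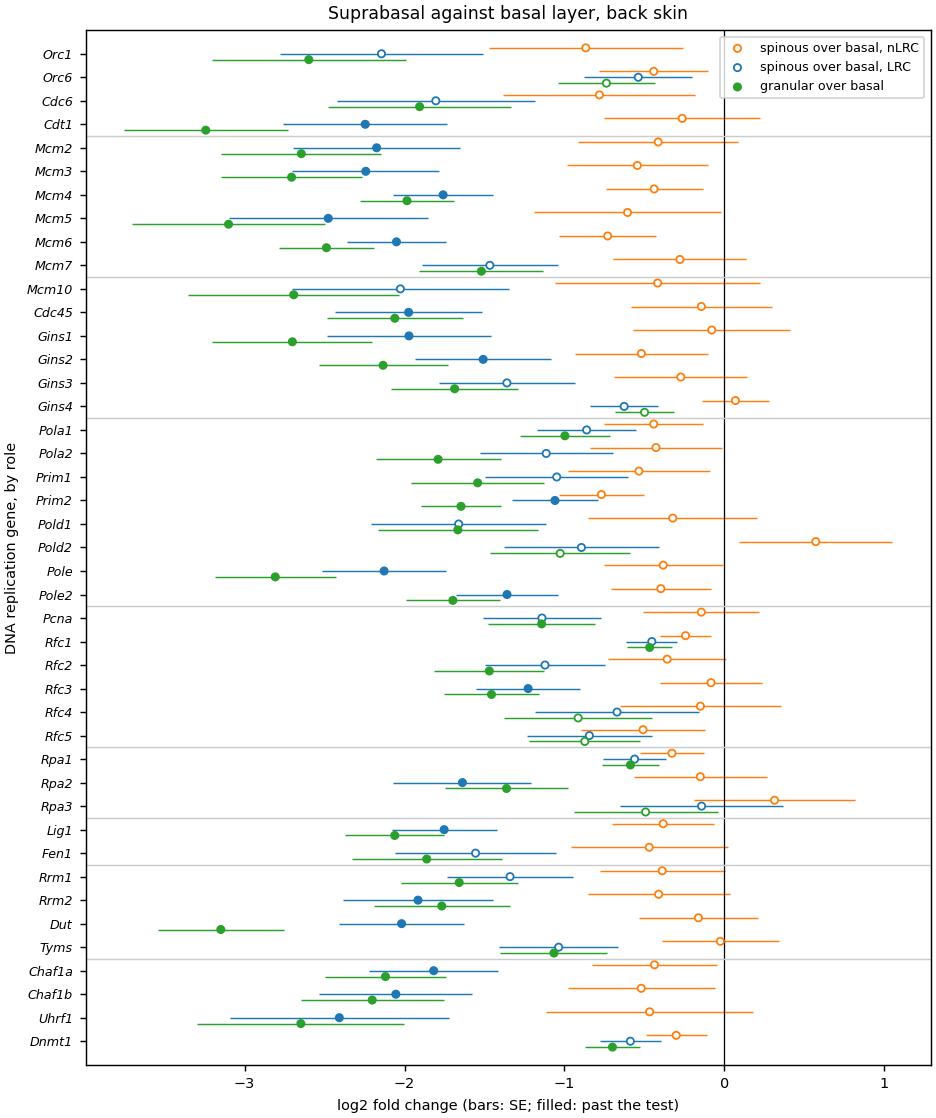
Log2 fold change (± SE) of each member between back layers, spinous over basal among nLRC in orange, spinous over basal among LRC in blue and granular over basal in green, with filled points past the edgeR test. For most members the orange points lie closest to 0 (median -0.39), the blue lie lower (median -1.51) and the green lowest (median -1.70).

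Within back skin, granular cells carried the least summed replication RNA, although they were not tested against spinous LRC. Against the mean of the basal groups, 37 of 43 members fell and 0 rose, where 8.85% of all genes were called lower, and all 43 log2 differences were negative with a median of -1.70. Mcm6 fell by 2.49 ± 0.30 (edgeR adjusted p = 1.39e-05), and all 6 MCM subunits fell. Cdt1 was at 5.5, 7.42 and 3.35 TPM in granular cells, below every basal library, and was 9.47-fold lower. Dut was at 2.54, 6.97 and 0.9 TPM and fell by 3.15 ± 0.39. Pole fell by 2.81 and Pole2 by 1.70, as did Lig1 by 2.06, Prim2 by 1.65, Mcm3 by 2.71, Mcm4 by 1.98, Chaf1a by 2.12, Gins1 by 2.70 and Gins2 by 2.13. Rrm2 was at 4.8, 8.78 and 7.21 TPM and Rfc3 at 8.17, 9.11 and 6.43, close to their spinous LRC values. The 6 that did not pass were Gins4, Orc6, Pold2, Rfc4, Rfc5 and Rpa3.

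Of the surrounding lists in granular cells, 14 of 29 replisome genes fell (the cohesion factor Dscc1 by 5.55, Wdhd1 by 3.08, the checkpoint scaffold Topbp1 by 1.35), 10 of 21 S phase entry genes (Ccnd1 by 3.11), 5 of 14 supply genes and 13 of 24 mitosis genes, or 21 with the replicate block. Immune markers (4 of 5 tested) and sebocyte markers (6 of 7) rose in the same comparison, and their part was not tested. The count of members was 28 to 37 without single libraries, all of them lower. Over all genes, those called lower in these fits ran from 946 of 17343 (without granular library 1) to 1306 of 17429 (without basal LRC library 3).

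The hair follicle bulge houses hair follicle stem cells that are mostly quiescent. In back skin its replication genes gave a direction that depended on 1 library. With all 3 bulge libraries, 2 members rose, where 15.7% of genes were called higher, and 2 fell, where 10.6% were called lower. The median was 0.20 and 25 members were positive. Rrm2 was at 48.78, 32.1 and 38.89 TPM in the bulge, above all 6 basal libraries (15.59 to 29.32), and rose by 1.38 ± 0.37 (edgeR adjusted p = 0.0106). Rpa3 was at 10.48, 22.41 and 18.21 TPM, which overlapped the basal libraries, and rose by 1.34 ± 0.42 (edgeR adjusted p = 0.0269). The polymerase alpha subunit Pola1 was at 6.88, 4.35 and 4.59 TPM, below all basal libraries, and fell by 1.51 ± 0.29 (edgeR adjusted p = 9.25e-04). Prim2 was at 11.4, 7.45 and 10.98 TPM, which overlapped the basal libraries on this scale, and fell by 1.18 ± 0.24 (edgeR adjusted p = 0.00173). On GRCm38, Pola1 spans 327389 bases with 8813 in exons and Prim2 215986 with 5938, the longest gene bodies among the members. The median estimated intron share over protein-coding genes was 9.78% in bulge library 2, against 37.72 and 25.03% in libraries 1 and 3. The part of intron reads in these counts was not tested.

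Without back bulge library 2, 21 members fell and 0 rose, where 10.9% of all genes were called lower, with a median of -0.69. Without bulge library 1, 7 rose and 2 fell (median 0.40), where 2969 of 17091 genes were called higher and 2674 lower. Without library 3, 4 rose and 2 fell (median 0.32), where 2647 of 17126 genes were called higher and 1823 lower. On TMM-scaled CPM, 40 of 43 members in bulge library 2 lay above the basal mean (median log2 ratio 0.98), and on TPM 9 of 43 did (median -0.52). The medians of bulge libraries 1 and 3 were -0.76 and -0.84 on scaled CPM and -0.36 and -0.65 on TPM. With limma on log2(TPM + 1), 0 rose and 5 fell, where 921 of 15114 genes were called higher and 1007 lower. Of these 5, 1 was among the 4 called by edgeR with all 3 libraries. With all 3 libraries, 14 of 24 mitosis genes also rose, against 0 of 24 (median -0.09) without library 2 and 1 of 24 with limma on log2(TPM + 1). With all 3, endothelial (3 of 3 tested), melanocyte (6 of 6) and fibroblast markers (4 of 5 tested) rose. Their part in the members' values was not tested.

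**Figure D5:**
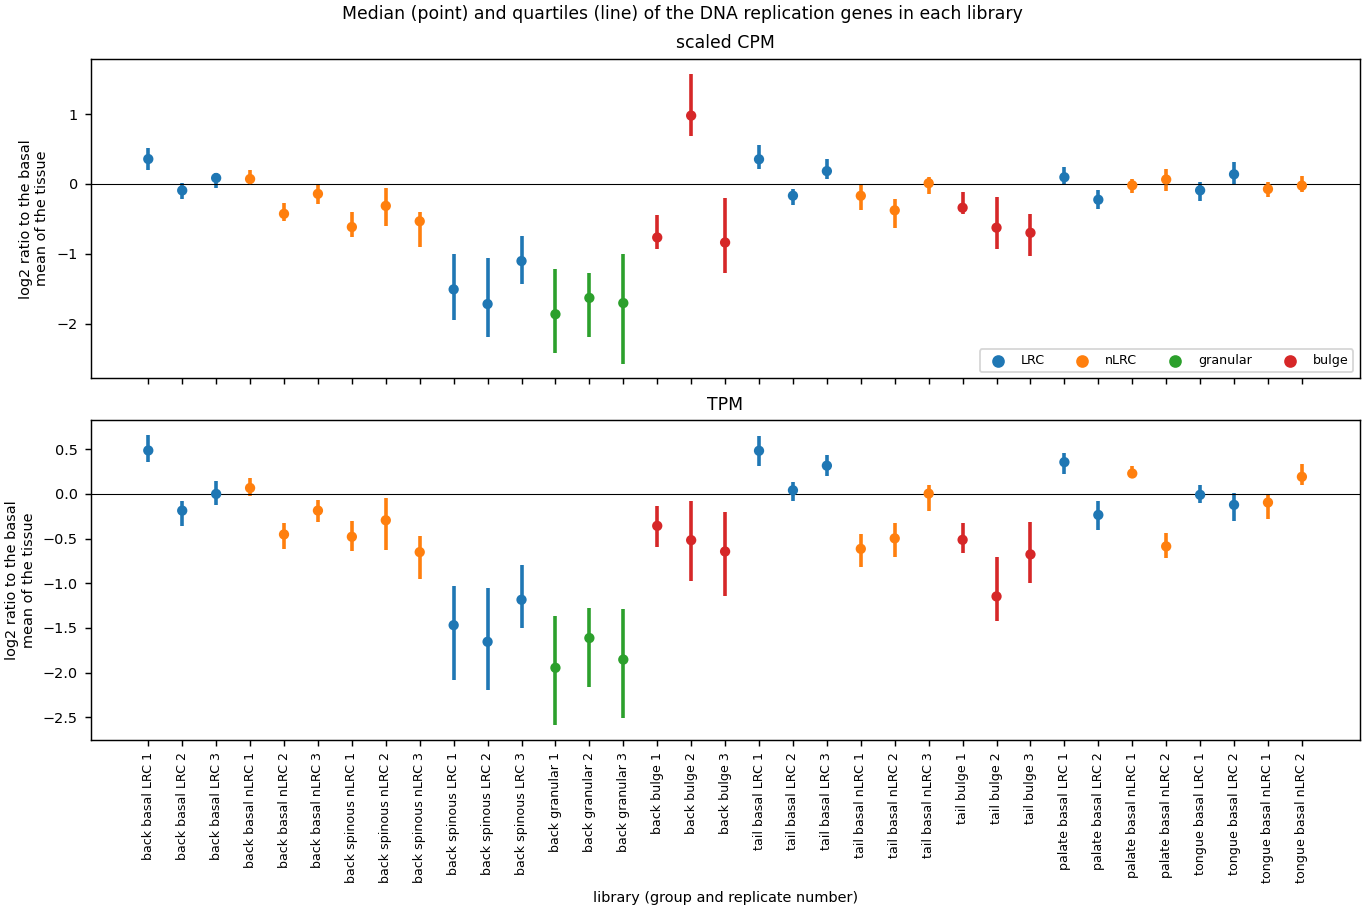
Median and quartiles over the 43 members of the log2 ratio of each library to the mean of the basal libraries of its tissue, on TMM-scaled CPM (top) and on TPM (bottom). Back bulge library 2 sits at 0.98 on scaled CPM and at -0.52 on TPM, the other back bulge libraries are below 0 on both, and spinous LRC and granular libraries lie lowest.

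In the tail bulge, of the 43 members 15 fell against the basal layer, where 10.4% of genes were called lower, and 1 rose, where 14.2% were called higher. The log2 difference was negative for 41 members with a median of -0.50. Pola1 was at 3.29, 2.28 and 2.39 TPM in the bulge, 8.15, 7.34 and 9.43 in basal LRC and 5.1, 5.81 and 8.72 in basal nLRC. The bulge libraries lay below all basal ones, and Pola1 fell by 1.15 ± 0.16 (edgeR adjusted p = 4.26e-04). Gins1 fell by 1.23, Mcm3 by 0.88, Cdt1 and Pole by 0.81 each, Prim1, the catalytic primase subunit, by 0.80, Lig1 by 0.75, the large ribonucleotide reductase subunit Rrm1 by 0.73, Mcm2 by 0.72 and thymidylate synthase Tyms by 0.71. Mcm6, Mcm7, Rfc3, Orc6 and Dnmt1 completed the 15. Rpa1 was at 22.48, 20.29 and 26.35 TPM in the bulge, 22.44, 19.42 and 18.52 in basal LRC and 12.21, 16.36 and 16.97 in basal nLRC. It overlapped basal LRC and not basal nLRC, and rose by 0.53 ± 0.10 (edgeR adjusted p = 0.00293). Of the mitosis genes 20 of 24 fell (Mki67 by 2.31), of the other replisome genes 9 of 29 (the ring unloader Atad5 by 0.81, Orc5 by 0.54), of the supply genes 2 of 14, and of the S phase entry genes 8 fell and 1, cyclin D3 (Ccnd3), rose by 1.62. Markers of other cell types moved in the same comparison: 3 of 3 tested endothelial markers rose (Cdh5 by 6.20, Kdr by 4.49), as did 2 of 3 tested fibroblast markers (Col1a1 by 6.03), while 5 of 5 spinous and 2 of 7 sebocyte markers fell. Their part in the members' values was not tested. The calls of 15 members lower and 1 higher moved with single libraries. Without bulge library 2, 2 of 43 fell and 1 rose, where 1053 of 15803 genes were called lower. Without bulge library 3, 2 fell and 2 rose, where 1042 of 15649 genes were called lower. Without LRC library 3 or without nLRC library 3, 5 fell and 1 rose. Without LRC library 1, 7 fell and 2 rose, and without nLRC library 1, 9 fell and 1 rose. Over all genes, those called lower in these fits ran from 1042 of 15649 (without bulge library 3) to 1329 of 15639 (without LRC library 1). Those called higher ran from 1674 of 15649 (without bulge library 3) to 1967 of 15691 (without nLRC library 1).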

How the data were processed

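Sorted cells were profiled as bulk libraries by RNA sequencing, 35 libraries in 13 groups. The deposited tables give, per the file headers, total gene reads (counts), RPKM and TPM for each gene of each library, computed by the authors, on build mm10 per the submitters' processing notes. No source used here names the aligner, the annotation or the strand setting. Total gene counts appeared to include intron reads, as estimated here from RPKM, annotated exon lengths and genes without introns. RPKM served only to check exon reads. The members and all lists were chosen with earlier results of these data known.

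Counts were tested with edgeR 4.0.16 (quasi-likelihood, TMM scaling, filterByExpr with a minimum count of 10 and total of 15) in R 4.3.3, over all genes, with Benjamini-Hochberg adjusted p under 0.05. All 43 members passed the filter in every fit. Separate fits covered the 18 back libraries, the 9 tail libraries, the 8 palate and tongue libraries, and the 20 basal libraries. Alternatives were DESeq2 1.42.0, median-of-ratios scaling, no filter, a replicate block, limma 3.58.1 on log2(TPM + 1) and log2(TPM + 0.1), only the groups compared, and each library left out. The fits were also run on simulated counts with known changes. Those counts had the same spread for every gene, no paired libraries and no library that stood apart. They cannot show how the fits behave where libraries pair or stand apart, as they do here. All members could be named, with those of smallest p given per comparison. Same-numbered libraries deviated together in back layers (correlations of 0.109 to 0.328) and tail basal cells (0.326 to 0.585), so these numbers were taken to pair them, which did not hold for the bulges. Every pair of libraries within a group differed by more than counting noise (smallest chi-square 21.1 for each degree of freedom). Depth limits mostly the members with the lowest counts.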

Additional observations from a re-analysis of the deposited data

Results flagged for a closer look

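Among the genes around the replication list, 2 had an LRC effect that differed between tail and back basal cells. The difference itself was tested (edgeR quasi-likelihood, Benjamini-Hochberg adjusted over 17103 genes). Over all genes 463 of 17103 (2.71%) passed in either direction, and in the lists 1 of 24 mitosis and 1 of 21 S phase entry genes did. The S phase repressor E2f7 differed by 2.11 ± 0.47 on the log2 scale (edgeR adjusted p = 0.0168). Its TPM was 3.34, 1.66 and 1.2 in back LRC, 2.88, 3.18 and 1.72 in back nLRC, 2.44, 1.24 and 1.92 in tail LRC and 0.4, 0.37 and 0.84 in tail nLRC. The groups overlapped in back and did not in tail. With the replicate number as a block, 15 of 24 mitosis genes and 1 of 21 S phase entry genes passed this test, against 1 and 1 without it. The share of all genes that passed with the block is not given here, so the block counts have no background.

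The mitotic kinase Aurkb differed by 2.15 ± 0.47 (edgeR adjusted p = 0.0163). Its TPM was 8.91, 11.9 and 9.32 in back LRC, 13.59, 14.24 and 18.26 in back nLRC, 22.57, 9.9 and 12.41 in tail LRC and 2.61, 4.86 and 5.13 in tail nLRC. It was lower in LRC than in nLRC in back and higher in tail, without overlap in either. Back and tail values come from separately tabulated libraries. Bulge and sebocyte markers, Sox9 and Pparg among them, differed between the tissues in the same way of testing, and their part was not tested.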

How the results depend on the processing

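Over the 68 results for the members of smallest p in each comparison, no alternative reversed a direction. These were picked by p from the same libraries, so a kept direction says little about the other members. Over all 43, the back bulge median turned from 0.20 to -0.69 without bulge library 2. From edgeR to limma on log2(TPM + 1), positive members went from 17 to 37 in palate and from 29 to 11 in tongue. For the 68, settings other than leaving out a library kept the side of the threshold in 486 cases, lost it in 15 and gained it in 24. Leaving out single libraries kept it in 427, lost it in 88 and gained it in 1. Counts of members called moved as follows. In the spinous LRC comparison (7) DESeq2 called 15, where 1751 of 16574 genes were called lower, and no filter gave 17, where 1409 of 29299 were. Limma called 16 on log2(TPM + 1), where 762 of 15114 genes were called lower, and 15 on log2(TPM + 0.1), where 653 were. Only the groups compared gave 26, where 2158 of 14536 genes were called lower. Without back bulge library 2 it was 28, where 12.2% were called lower. Leaving out single libraries gave 1 to 8. For spinous over basal among LRC (20), DESeq2 called 31, where 753 of 16574 genes were called lower. Only the groups compared gave 38, where 1045 of 14259 were called lower. Without back bulge library 2 it was 38, where 5.46% were called lower, and without single libraries it was 6 to 21. Among nLRC (0) the counts were 1 with the replicate block, 2 with only the groups compared and 1 without back bulge library 2. Over all genes, 523 of 16574, 635 of 14678 and 706 of 17405 were called lower. For the difference between layers (0), the counts were 2 with DESeq2, 22 with only the groups compared and 17 without back bulge library 2. Over all genes, 306 of 16574, 604 of 15542 and 393 of 17405 were called lower. In tail basal cells (0), the counts were 5 with DESeq2, 6 with no filter, 8 with the replicate block and 2 on each TPM scale, with 0 to 2 without single libraries. Over all genes, 909 of 14993 were called higher with DESeq2, 1358 of 31490 with no filter and 1214 of 14993 with the block. On the TPM scales, 348 and 338 of 12952 were. Without single libraries, granular counts ran from 28 to 37, all lower, where 946 of 17343 to 1306 of 17429 genes were called lower. Back bulge counts of both directions ran from 3 (1 higher, 2 lower) to 21 (all lower). Over all genes, 1523 of 17341 to 2674 of 17091 were called lower and 2325 of 17343 to 2969 of 17091 higher. Tail bulge counts ran from 3 (1 higher, 2 lower) to 21 (1 higher, 20 lower). There, 1042 of 15649 to 1644 of 15307 genes were called lower and 1650 of 15528 to 2182 of 15307 higher. The replicate block changed no other count of members by over 1.5 times, and with 2 pairs each (correlations of 0.283 in palate and 0.0471 in tongue) the oral numbers were not taken to pair libraries. With 2 or 3 libraries per group, a difference that missed the threshold is not shown to be absent. The cause of these shifts was not tested.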
